A study of Sus scrofa with 12 samples.

Results

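The calgranulins S100A8, S100A9 and S100A12 were followed in pig endometrium at Day 14 after insemination. They were chosen by their difference between pregnant and non-pregnant sows: of 23999 probe sets, that of S100A9 had the largest increase of the mean with pregnancy, and S100A8 and S100A12 are its close relatives. Every probe set that carried one of the 3 symbols as its only symbol was used, which gave 3 probe sets for 3 genes, 1 each, among 6765 genes named in this way. Because the pregnancy difference chose the members, it is described for them without a test, and tests are given for breed and for the interaction of pregnancy with breed.

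Endometrium came from 12 sows, with 1 Affymetrix array per sow. The 6 pregnant sows were 3 of genotype Yorkshire (YY) and 3 of genotype Landrace (LL), and so were the 6 non-pregnant sows, which had received inactivated semen. All uteri were flushed with buffered saline that held fetal calf serum, and the tissue sampled held the epithelium, the lamina propria and the submucosa without the muscle layer. The labels give the genotype, Day 14 and the status of each sow, and no age. Values are RMA expression values on the log2 scale, on which a difference of 1 is a doubling, and the sows keep the numbers 1 to 12 of their labels.

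Calgranulins are small calcium-binding proteins of the S100 family, which bind the ion through EF-hand loops. S100A8 and S100A9 pair into calprotectin, which is abundant in neutrophils and monocytes, is released at sites of inflammation and withholds zinc and manganese from microbes, and S100A12 is released by the same cells. Stressed or activated epithelia can also make S100A8 and S100A9, and TLR4 and AGER (the receptor RAGE) are receptors of the secreted proteins. In RefSeq's table of pig genes (assembly Sscrofa11.1) they lie beside each other on chromosome 4 in the order S100A8, S100A12, S100A9.

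The arrays were alike in their overall distribution, with medians of 6.25 to 6.30, and each correlated with its nearest array at r = 0.975 to 0.992 (over probe sets, not independent of each other). Pregnant sow 12 and non-pregnant sow 7 stood apart. On the first principal component pregnant sow 12 lay at -18.9 and the other pregnant sows at 15.5 to 43.8, and non-pregnant sow 7 lay at 20.4 and the other non-pregnant sows at -42.3 to -8.15. The array nearest to each of pregnant sows 8 and 12 was that of a non-pregnant sow, 5 and 11. Results that rest on these sows are given with and without them. The 3' minus 5' signal of the GAPDH controls, which rises as RNA degrades, was 1.15 to 1.59 in pregnant and 0.869 to 1.63 in non-pregnant sows, and it was 1.31 to 1.63 in Yorkshire and 0.869 to 1.25 in Landrace sows.

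S100A9, the larger partner of calprotectin, was low in 5 of 6 non-pregnant sows and high in 5 of 6 pregnant sows. The non-pregnant Yorkshire sows 1, 3 and 11 had log2 values of 3.16, 3.91 and 3.58, and the non-pregnant Landrace sows 5, 7 and 9 had 3.62, 9.35 and 3.54. The pregnant Yorkshire sows 2, 4 and 12 had 12.56, 12.79 and 7.72, and the pregnant Landrace sows 6, 8 and 10 had 12.06, 12.19 and 12.13. The groups overlapped through sows 7 and 12 alone: 5 of 6 pregnant sows exceeded every non-pregnant sow, and 6 of 6 lay above the other 5 non-pregnant sows. Those 5 values lay below the lower quartile of their own arrays, 4.58 to 4.69, where an RMA value holds mostly background, so the fold below is limited by background and may be too small.

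The mean log2 value of S100A9 was 11.58 ± 1.91 with pregnancy and 4.53 ± 2.38 without (SD, n = 6 each), a difference of 7.05 ± 1.04 (SE) or 132-fold. The difference was 7.47 in Yorkshire and 6.62 in Landrace sows. It was 7.95 without non-pregnant sow 7, 7.73 without pregnant sow 12 and 8.84, or 457-fold, without both. In bulk tissue a change in the number of cells that hold a transcript and a change in its amount per cell cannot be told apart.

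S100A8, the smaller partner, followed S100A9 in some pregnant sows and not in others. The non-pregnant Yorkshire sows 1, 3 and 11 had log2 values of 5.01, 4.74 and 4.10, and the non-pregnant Landrace sows 5, 7 and 9 had 4.60, 6.03 and 4.73. The pregnant Yorkshire sows 2, 4 and 12 had 8.42, 7.77 and 4.57, and the pregnant Landrace sows 6, 8 and 10 had 5.28, 7.17 and 5.17. Pregnant sows 2, 4 and 8 lay above every non-pregnant sow, pregnant sows 6 and 10 lay above all but non-pregnant sow 7, and pregnant sow 12 lay among the non-pregnant sows. The means were 6.40 ± 1.59 with pregnancy and 4.87 ± 0.64 without (SD, n = 6 each), a log2 difference of 1.53 ± 0.63 (SE) or 2.88-fold, which ranked 68 among the 23999 probe sets by size of increase. It was 2.30 in Yorkshire and 0.75 in Landrace sows, 1.82 without non-pregnant sow 7, 1.96 without pregnant sow 12 and 2.34, or 5.07-fold, without both.

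S100A12, a ligand of AGER and TLR4, divided the pregnant sows in the same way as S100A8. The non-pregnant Yorkshire sows 1, 3 and 11 had log2 values of 4.12, 4.40 and 4.08, and the non-pregnant Landrace sows 5, 7 and 9 had 4.20, 5.07 and 4.35. The pregnant Yorkshire sows 2, 4 and 12 had 6.37, 6.95 and 4.13, and the pregnant Landrace sows 6, 8 and 10 had 4.65, 5.65 and 4.87. Pregnant sows 2, 4 and 8 were again the ones above every non-pregnant sow. The value lay below the lower quartile of the array in 5 of 6 non-pregnant and in 2 of 6 pregnant sows. The means were 5.44 ± 1.08 with pregnancy and 4.37 ± 0.36 without (SD, n = 6 each), a log2 difference of 1.07 ± 0.42 (SE) or 2.09-fold, at rank 172. It was 1.61 in Yorkshire and 0.52 in Landrace sows, 1.24 without non-pregnant sow 7, 1.38 without pregnant sow 12 and 1.62, or 3.07-fold, without both.

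**Figure D1:**
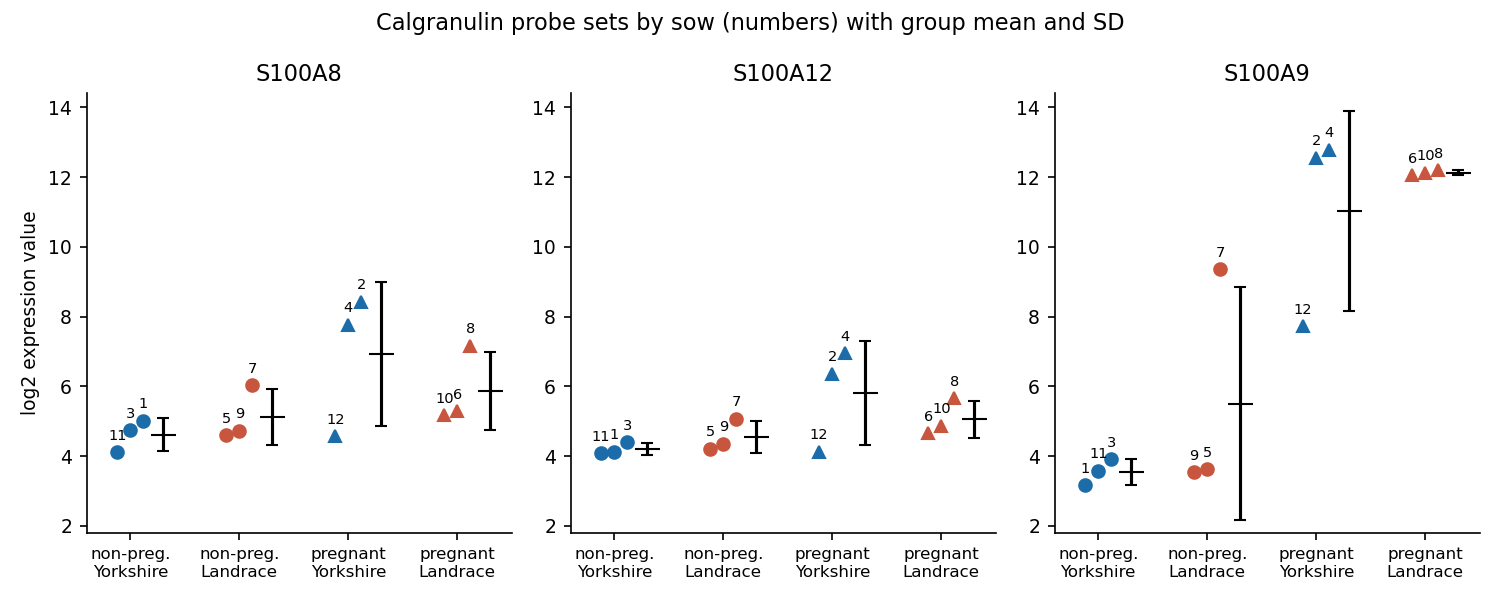
Log2 expression value of S100A8, S100A12 and S100A9 in each sow, in 4 groups of pregnancy by breed (points labelled with the sow number; bars to the right of the points are the mean and SD, n = 3). S100A9 lies between 12.06 and 12.79 in 5 of 6 pregnant sows and between 3.16 and 3.91 in 5 of 6 non-pregnant sows, with pregnant sow 12 at 7.72 and non-pregnant sow 7 at 9.35.

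As background to these descriptions, 3.95% of all probe sets were called higher and 3.94% called lower in pregnant sows (limma, adjusted p under 0.05), and in 1.3% of all probe sets, 311 of 23999, the lowest pregnant sow exceeded the highest non-pregnant one. None of the 3 calgranulins was among the 311. Nothing is read from these shares for the members, since the pregnancy difference chose them.

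In order of the group means, S100A9 was lowest in non-pregnant Yorkshire sows at 3.55 ± 0.38, followed by non-pregnant Landrace at 5.51 ± 3.33, pregnant Yorkshire at 11.03 ± 2.86 and pregnant Landrace at 12.13 ± 0.07 (SD, n = 3 each). The non-pregnant groups overlapped each other, and pregnant Landrace lay within the range of pregnant Yorkshire. S100A8 had its lowest mean in non-pregnant Yorkshire at 4.62 ± 0.46 and its highest in pregnant Yorkshire at 6.92 ± 2.06, with non-pregnant Landrace at 5.12 ± 0.79 and pregnant Landrace at 5.87 ± 1.12 between them. S100A12 had the same order, with 4.20 ± 0.18, 4.54 ± 0.46, 5.06 ± 0.53 and 5.82 ± 1.49. For S100A8 and S100A12 each neighbouring pair in this order overlapped. The 3 pregnant Landrace sows lay within 0.14 of each other in S100A9, while sow 8 exceeded the next highest by 1.88 in S100A8 and 0.78 in S100A12.

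No breed difference was called for any calgranulin, against 5.15% of all probe sets called for breed. The log2 difference of Landrace minus Yorkshire sows was 1.53 ± 1.04 for S100A9 (SE, limma adjusted p = 0.462), with a 95% interval of -0.74 to 3.79. It was -0.27 ± 0.63 for S100A8 (adjusted p = 0.860), with an interval of -1.65 to 1.11, and -0.21 ± 0.42 for S100A12 (adjusted p = 0.835), with an interval of -1.13 to 0.71. These intervals are wide, so a breed difference of several fold in S100A9 lies within them. Without sows 7 and 12 the S100A9 breed difference was -0.26 (adjusted p = 0.444). Leaving out 1 sow turned the sign of S100A8 and S100A12, to at most 0.15 and 0.10.

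The pregnancy difference was not shown to differ between the breeds. The interaction, the difference in Landrace minus that in Yorkshire sows, was -0.85 for S100A9 with a 95% interval of -5.59 to 3.88, -1.55 for S100A8 with -4.26 to 1.16 and -1.10 for S100A12 with -2.89 to 0.69 (limma, adjusted p = 1.00 for each). The share of probe sets called for the interaction was 0% of 23999 with limma, while 963 had an unadjusted p under 0.05, array weights gave 2 calls, and the smallest adjusted p was 0.322. Without sows 7 and 12 it called 29 probe sets. The S100A9 interaction ran from -2.50 to 1.07 when single sows were left out.

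Within one status the calgranulins were compared with each other over 6 sows, as 6 relations. In pregnant sows, S100A12 had exactly the rank order of S100A9 (rho = 1, exact permutation p = 0.00278, the smallest that 6 sows allow, adjusted over the 6 relations 0.0167; Pearson r = 0.701, exact permutation p = 0.0611, adjusted 0.0733). S100A8 and S100A9 had r = 0.656 (exact permutation p = 0.0611, adjusted 0.0733) and rho = 0.886 (exact permutation p = 0.0333, adjusted 0.0667). S100A8 and S100A12 had r = 0.939 (exact permutation p = 0.0139, adjusted 0.0667) and rho = 0.886 (exact permutation p = 0.0333, adjusted 0.0667). Without the 2 sows farthest from the median these r were 0.939, 0.907 and 0.932 (4 sows, exact permutation, adjusted p = 0.167 each). All tests were two-sided, and apart from the rank order of S100A12 and S100A9 none passed after adjustment. The permutations took no account of breed. In that rank order the Landrace sows stood together, above Yorkshire sow 12 and below Yorkshire sows 2 and 4. The S100A9 values of the Landrace sows lay within 0.14 of each other, so their order rests on small differences. In pregnant sows 6 and 12 S100A12 lay below the lower quartile of the array.

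In non-pregnant sows the relations rested on sow 7, which had the highest value of each calgranulin. S100A9 had r = 0.956 with S100A12 (exact permutation p = 0.0222, adjusted 0.0667) and r = 0.866 with S100A8 (exact permutation p = 0.118, adjusted 0.118), with rho of 0.714 and 0.257 (exact permutation p = 0.136 and 0.658, adjusted 0.204 and 0.658). S100A8 and S100A12 had r = 0.891 (exact permutation p = 0.05, adjusted 0.0733) and rho = 0.657 (exact permutation p = 0.175, adjusted 0.21). Without sow 7 and the next farthest sow the r were 0.555, 0.390 and -0.48. At these levels the members lay near the background of the arrays.

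**Figure D2:**
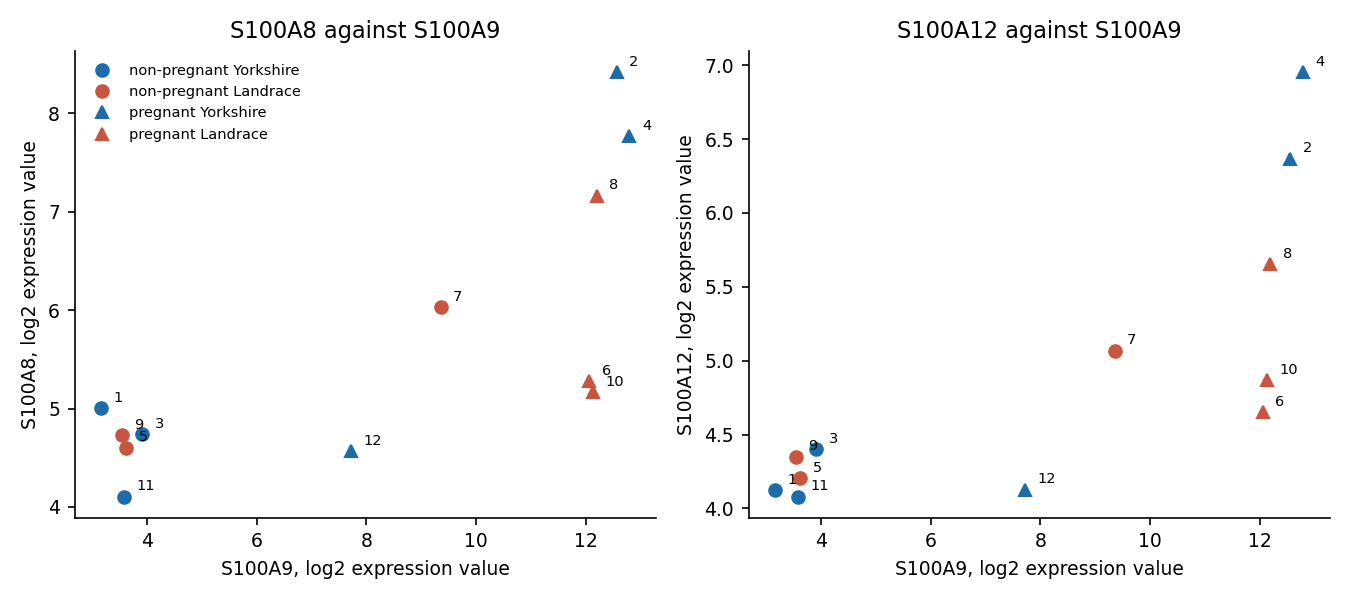
S100A8 (left) and S100A12 (right) against S100A9, log2 expression values, 1 labelled point per sow, with circles for non-pregnant, triangles for pregnant, blue for Yorkshire and red for Landrace sows. Pregnant sows 6 and 10 have S100A9 values of 12.06 and 12.13 but S100A8 values of 5.28 and 5.17, close to the highest of the 5 low non-pregnant sows, 5.01.

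Among all genes, S100A12 was the one most like S100A8 over the 12 sows (r = 0.954, place 1 of 6764). S100A9 was like other genes instead: S100A12 was at place 238 for S100A9 (r = 0.769) and S100A8 at place 268 (r = 0.750). These correlations run over both statuses and are descriptions, since any gene that differs with pregnancy will share them.

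The genes most like S100A9 over the 12 sows were TRPV6, an epithelial calcium channel (r = 0.969), SLC46A3, a lysosomal transporter (r = 0.968), FGL2, a fibrinogen-like secreted or membrane protein (r = 0.966), SCIN, an actin-severing protein regulated by calcium (r = 0.961), AGTR1, the angiotensin receptor (r = 0.961), and NDFIP1, an adaptor of ubiquitin ligases (r = 0.959). TRPV6 was 6.96 to 7.88 in 5 non-pregnant sows, 9.35 in non-pregnant sow 7, 9.45 in pregnant sow 12 and 9.91 to 11.23 in the other pregnant sows. FGL2 was 7.20 to 7.50 in the same 5 non-pregnant sows, 9.02 in sow 7, 8.26 in sow 12 and 9.24 to 10.77 in the other pregnant sows. For each of the 6 genes sows 7 and 12 lay between the other non-pregnant and the other pregnant sows, as they did for S100A9. The genes were chosen by their r to S100A9 over these same sows, so this placement is built into the choice. The genes most opposed were RGS4, a regulator of G-protein signalling (r = -0.958), the peroxidase PRDX2 (r = -0.955) and GALT of galactose metabolism (r = -0.949). RGS4 was 7.92 to 8.77 in the 5 non-pregnant sows, 6.40 in sow 7, 7.50 in sow 12 and 5.74 to 6.50 in the other pregnant sows.

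**Figure D3:**
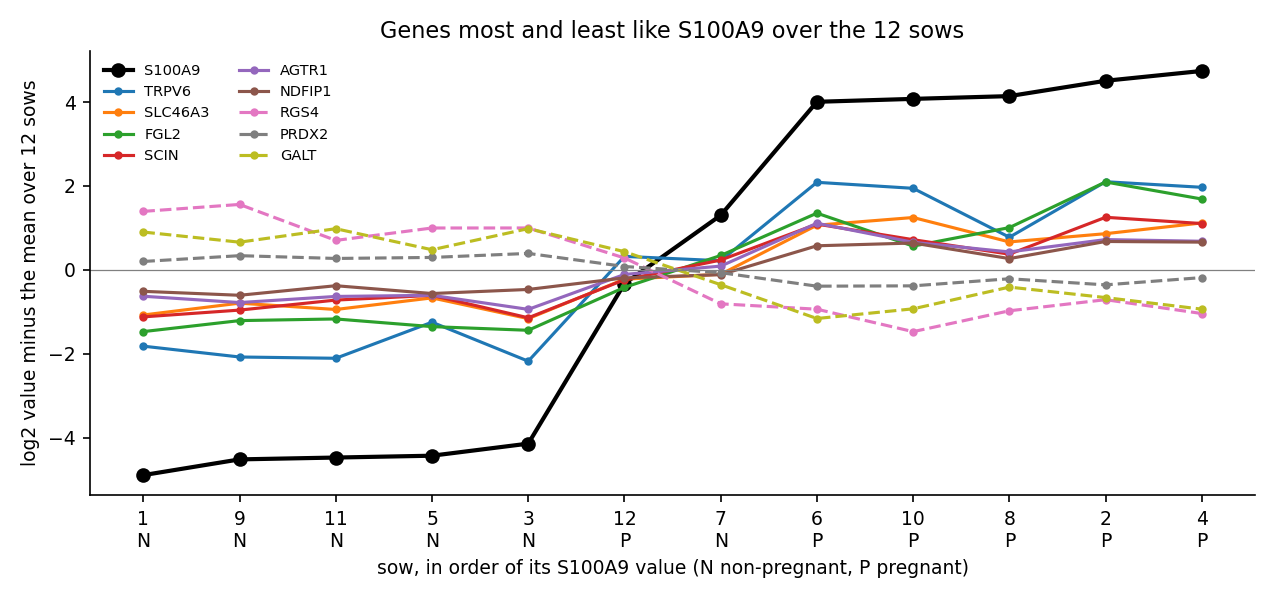
Log2 value minus the mean over 12 sows, for S100A9 (black), the 6 genes with the highest r to it (solid lines) and the 3 with the lowest (dashed lines), with sows in order of their S100A9 value and N or P for non-pregnant or pregnant. Sow 12 and sow 7 lie in the middle of the order; TRPV6 was 9.45 and 9.35 in them.

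The mean of each status was then subtracted, so that the difference between the status means no longer counted. The genes most like S100A9 were now LY96, the partner of TLR4 (r = 0.945), VSIG4, a complement receptor of macrophages (r = 0.919), the sorting protein VPS36 (r = 0.918) and CLIC2, a chloride channel protein (r = 0.909). LY96 was 6.90 to 7.52 in 5 non-pregnant sows and 8.98 in sow 7. In the pregnant sows it was 7.39 in sow 12 and 8.22 to 8.39 in the other 5. Sows 7 and 12 stand furthest from their status means in S100A9 and so weigh most in these 4 correlations. Both lay on the side of the other status on the first principal component, and subtracting status means does not remove that pattern.

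The receptors and partners of calgranulins were mostly not called. Of 11 measured of 20 listed, 1 was higher, 0 were lower and 10 did not pass (limma over all probe sets), with a median log2 difference of 0.12 against -0.03 over all genes. Over all 6765 genes, 4.58% were called higher and 7.48% lower. EMB, embigin, a membrane glycoprotein related to the S100A9 receptor basigin, had a log2 rise of 3.51 ± 0.49 (SE; limma, adjusted p = 0.00464). It was 4.12 to 5.56 in non-pregnant sows, 6.30 in pregnant sow 12 and 8.25 to 9.86 in the other pregnant sows, so the groups did not overlap. In non-pregnant sow 7, where S100A9 was 9.35, EMB was 5.32, within the range of the other non-pregnant sows.

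TLR4 had a log2 difference of 0.88 ± 0.27 (SE, adjusted p = 0.0640), its partner LY96 of 0.61 (adjusted p = 0.202), the coreceptor CD14 of 0.50 (adjusted p = 0.485) and AGER of 0.05 (adjusted p = 0.717). AGER lay below the lower quartile of the array in 10 of 12 sows. Non-pregnant sow 7 had the highest non-pregnant values of TLR4, LY96 and CD14, at 8.31, 8.98 and 7.62. Without it, 5 of the 11 rose, with TLR4 at 1.09 (adjusted p = 0.0138), LY96 at 0.87 (adjusted p = 0.0119), CD14 at 0.89 (adjusted p = 0.0112) and the adaptor MYD88 at 0.27 (adjusted p = 0.0423) beside EMB, against 6.34% of all genes called higher in that fit. TLR4 was also called without pregnant sow 8, and with all 12 sows kept under array weights or without dim probe sets. A higher difference is built into leaving out the top non-pregnant sow.

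Of the other S100 genes, 1 rose and 1 fell, where 4.58% of all genes were called higher and 7.48% lower. Of 7 measured of 17 listed, S100B, a calcium-binding protein known from glia, rose by a log2 value of 0.91 ± 0.17 (SE; adjusted p = 0.00953) and S100A11, an annexin-binding protein of epithelia, fell by 0.73 ± 0.14 (adjusted p = 0.0111). S100A11 was 11.50 to 11.99 in non-pregnant and 10.35 to 11.34 in pregnant sows, with no overlap. S100B was 8.63 to 9.41 in non-pregnant and 9.41 to 10.39 in pregnant sows, so the groups overlapped at 9.41 alone. S100A4, S100A10, S100A14 and S100G, the vitamin D-dependent calbindin, had log2 differences of -0.08, 0.00, -0.23 and 0.36 (adjusted p = 0.913, 0.996, 0.482 and 0.786). S100A1, a calcium sensor of muscle, was at -0.50 (adjusted p = 0.0917) and fell by 0.63 without non-pregnant sow 7 and by 0.58 without pregnant sow 12 (adjusted p = 0.0156 and 0.0445). Sow 7 had its lowest non-pregnant and sow 12 its highest pregnant value, so a larger fall is built into leaving either out. The median difference of the 7 S100 genes was -0.08.

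Inflammatory cytokines and transcription factors that are known to induce calgranulins were mostly not called. The same held for all genes, of which 4.58% were called higher and 7.48% lower. Of 25 measured of 43 listed, 0 rose and 1 fell (limma; 0 higher and 3 lower at an unadjusted p under 0.05, with a median log2 difference of 0.01). IL1A, an alarmin cytokine that induces S100A8 and S100A9 in keratinocytes, fell by 1.28 ± 0.19 in log2 units (SE; adjusted p = 0.00584) and was 6.97 to 7.66 in non-pregnant and 5.59 to 6.87 in pregnant sows, with no overlap. IL1B, TNF and IL6 differed by 0.03, 0.01 and -0.20 (adjusted p = 0.986, 0.971 and 0.374), and CEBPB, STAT3 and NFKBIA by 0.11, 0.08 and -0.35 (adjusted p = 0.887, 0.773 and 0.484). IL1B was 9.74 in non-pregnant sow 7 and 9.52 in pregnant sow 10, against 6.36 to 6.87 in the other 10 sows. Without non-pregnant sow 7 the receptor subunit IL10RB rose by 0.52 (adjusted p = 0.0286), with 6.34% of all genes called higher in that fit. Sow 7 had the highest non-pregnant value of IL10RB, so a larger rise is built into leaving it out.

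Genes of neutrophil attraction were called in 1 case, where 4.58% of all genes were called higher and 7.48% lower. Of 8 measured of 19 listed, 1 rose and 0 fell, with a median log2 difference of -0.08. It was AMCF-II, a porcine neutrophil chemokine, at 0.51 ± 0.10 (SE, adjusted p = 0.0119), but the difference was -0.01 with the mean of its probe sets. CXCL8, the main neutrophil chemokine, was 2.91 to 3.11 in all pregnant sows and 2.94 to 3.09 in 5 non-pregnant sows, below the lower quartile, and 8.64 in non-pregnant sow 7. Its difference was -0.96 (adjusted p = 0.548).

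Of 18 measured of 30 listed epithelial defence genes, 2 rose, 2 fell and 14 did not pass, with a median log2 difference of -0.03, against 4.58% of all genes called higher and 7.48% called lower. The membrane mucin MUC4 rose by 2.42 ± 0.42 in log2 units (SE; adjusted p = 0.00848) and MUC1 by 0.29 (adjusted p = 0.0442), while the antimicrobial peptide DEFB1 fell by 2.76 ± 0.66 (adjusted p = 0.0275) and the mucosal chemokine CCL28 by 1.62 (adjusted p = 0.0474). The DEFB1 call ended without any 1 of sows 1, 2, 3, 4, 5, 6 and 9 (adjusted p up to 0.0692), the MUC1 call without any 1 of sows 2, 3, 5, 6, 7, 8, 9 and 10 (up to 0.102) and the CCL28 call without any 1 sow but 8 and 12 (up to 0.108). The MUC1 call also ended with the mean of its 2 probe sets, the other of which had a difference of the opposite sign. SLPI, a secreted protease inhibitor, differed by 1.45 (adjusted p = 0.199) and rose by 2.01 without non-pregnant sow 7 (adjusted p = 0.0238), as did the complement factor C3 by 1.33 (adjusted p = 0.0159). In that fit 6.34% of all genes were called higher. Sow 7 had the highest non-pregnant values of SLPI and C3, so a larger rise is built into leaving it out.

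Of 8 measured of 33 listed genes of stressed squamous epithelium, where calgranulins are typically abundant, 1 rose and 0 fell, with a median log2 difference of -0.13. Over all genes, 4.58% were called higher and 7.48% lower. The serine protease inhibitor SERPINB7 rose by 3.90 ± 0.67 in log2 units (SE; adjusted p = 0.00758). It was 3.01 to 3.21 in 4 non-pregnant sows, 4.90 in sow 5, 7.85 in sow 7, 6.80 in pregnant sow 12 and 7.74 to 9.01 in the other pregnant sows. Sow 7 lay within the range of the other pregnant sows, and sow 12 lay between the groups.

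Of 14 measured of 26 listed genes of zinc and metal handling, 2 rose and 0 fell, with a median log2 difference of 0.06. Over all genes, 4.58% were called higher and 7.48% lower. SLC11A2, a transporter of iron and manganese, rose by 1.51 ± 0.34 in log2 units (SE; adjusted p = 0.0209), a call that ended without sow 2, 3, 4, 6 or 9 (adjusted p up to 0.0542), and the ferritin subunit FTH1 by 0.33 (adjusted p = 0.0376), a call that ended without any 1 sow but 7, 8 and 12 (up to 0.0895). Without non-pregnant sow 7 the transferrin receptor TFRC also rose by 1.00 (adjusted p = 0.0423), and without pregnant sow 12 the zinc transporter SLC39A7 fell by 0.38 (adjusted p = 0.0199). Of the 6 measured of 12 listed enzymes of the NADPH oxidase and of leukotriene synthesis, which act with calprotectin in phagocytes, none rose or fell in limma's test, and 1 had an unadjusted p under 0.05, CYBA at -0.43 (adjusted p = 0.118). Without non-pregnant sow 7, NCF4 rose by 0.44 and ALOX5AP by 0.70 (adjusted p = 0.0240 and 0.0457). In that fit 6.34% of all genes were called higher. Sow 7 had the highest non-pregnant values of TFRC, NCF4 and ALOX5AP, and sow 12 the highest pregnant value of SLC39A7. Larger differences are thus built into leaving these sows out.

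**Figure D4:**
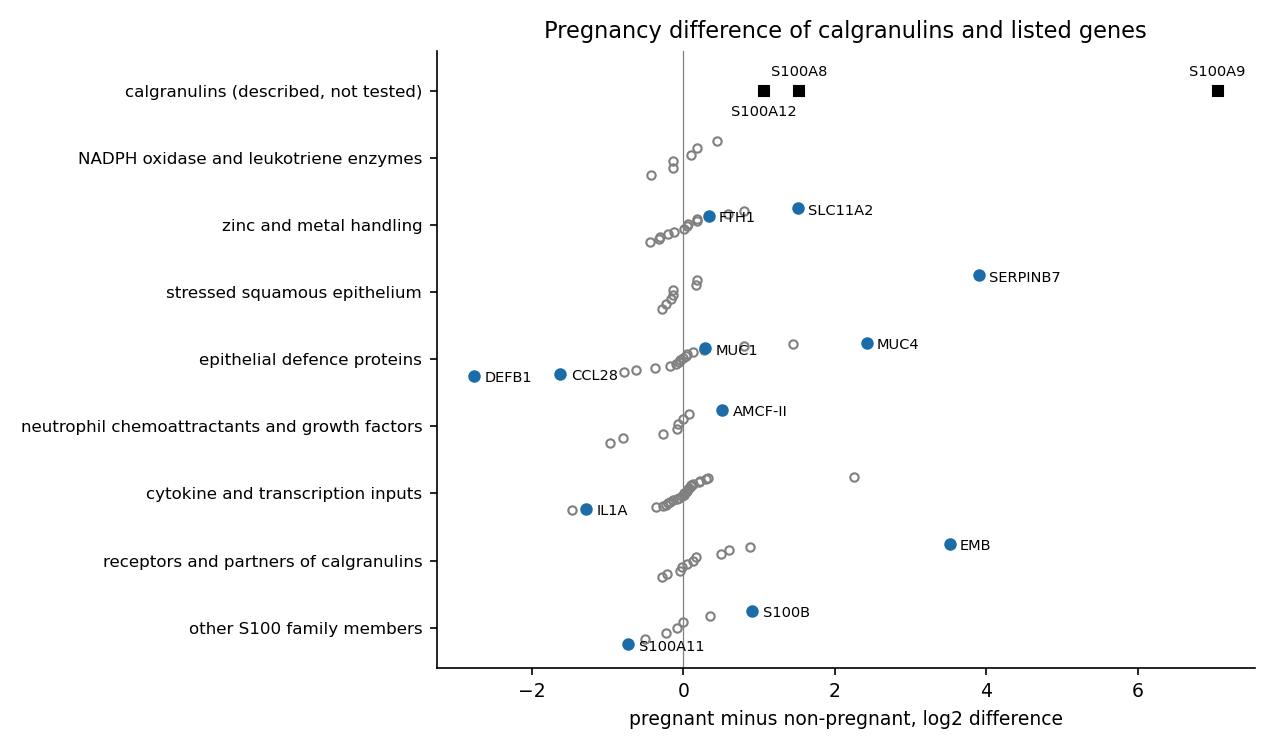
Log2 difference of pregnant minus non-pregnant sows for the measured genes of 8 lists, 1 point per gene (filled and named where limma's adjusted p was under 0.05, open otherwise), with the 3 calgranulins as squares at the top, which were not tested. S100A9 lies at 7.05; among the listed genes the called differences run from -2.76 for DEFB1 to 3.90 for SERPINB7.

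Markers of the cells that are rich in calgranulins in blood were set beside these values. Over all genes, 4.58% were called higher and 7.48% lower. Of 11 measured of 31 listed neutrophil markers, none rose or fell in limma's test, 2 were lower at an unadjusted p under 0.05 (PGLYRP1 and PTGS2), and the median log2 difference was 0.03. The mean of the list was 5.50 to 5.66 in pregnant sows, 5.43 to 5.77 in 5 non-pregnant sows and 6.15 in non-pregnant sow 7. ELANE, neutrophil elastase, differed by 0.03 (adjusted p = 0.906) and LTF, lactoferrin, by -0.05 (adjusted p = 0.838). LTF and TREM1 lay below the lower quartile in 11 of 12 sows, and MPO, CSF3R and CXCR2 were not among the measured names. Apart from FCGR3A and PTGS2, each measured neutrophil marker stayed below 6.25, the lowest array median, in all 12 sows. The number of neutrophils was not tested. PGLYRP1, a peptidoglycan-binding protein of neutrophil granules, was at -0.67 (adjusted p = 0.0511) and fell by 0.75 without non-pregnant sow 7 and by 0.79 without pregnant sow 12 (adjusted p = 0.0314 and 0.0180), and it also passed without pregnant sow 8.

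Of 14 measured of 19 listed macrophage and monocyte markers, and of 8 measured of 12 listed pan-leukocyte markers, none rose or fell in limma's test and 0 had an unadjusted p under 0.05, with median log2 differences of 0.04 and -0.04. This holds for the 1 probe set that stood for each gene. VSIG4 was at -0.20, but another of its 3 probe sets was called higher. The mean of the macrophage list was 6.59 to 7.01 in pregnant sows, 6.33 to 6.55 in 5 non-pregnant sows and 8.16 in non-pregnant sow 7. The mean of the pan-leukocyte list was 6.60 to 7.03, 6.53 to 6.65 and 8.08 in the same order. The scavenger receptor CD163 was 11.1 in sow 7 and 7.12 to 7.56 in the 5 others of its status, and PTPRC, the leukocyte antigen CD45, was 6.54 and 5.01 to 5.24. Without sow 7, CD14 and TYROBP of the macrophage list rose by 0.89 and 0.46 (adjusted p = 0.0112 and 0.0240) and LAPTM5 of the leukocyte list by 0.59 (adjusted p = 0.0264). In that fit 6.34% of all genes were called higher. Sow 7 had the highest non-pregnant values of these genes, so a larger rise is built into leaving it out. In sow 7 a high S100A9 went with high leukocyte lists. The macrophage list mean of every pregnant sow lay above that of the 5 other non-pregnant sows. In pregnant sows 2, 4, 6, 8, 10 and 12 this mean was 6.59, 6.81, 7.01, 6.59, 6.97 and 6.77. S100A9 was 12.56, 12.79, 12.06, 12.19, 12.13 and 7.72 in the same order. The part of leukocytes in the S100A9 values was not tested.

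Some markers of other tissue parts were called for pregnancy, where 4.58% of all genes were called higher and 7.48% lower. Of 10 endothelial markers 7 rose, with list means of 7.10 to 7.66 in pregnant and 6.49 to 7.02 in non-pregnant sows. That count was 4 without any 1 of sows 1, 2, 3, 4, 6, 9 and 11 and with the mean of a gene's probe sets. Of 7 measured stromal markers 4 rose, and 2 without any 1 of sows 1, 2, 3, 4, 5 and 6, without the breed term or with the mean of a gene's probe sets. Of 12 measured epithelial markers 1 rose, MUC1, and 2 fell, KRT8 and CLDN7, with list means of 9.32 to 9.98 in pregnant and 9.77 to 9.96 in non-pregnant sows. None of these 3 was called without sow 2, 3, 5, 6 or 9, and the adjusted p reached 0.102, 0.0985 and 0.0688 when single sows were left out. MUC1 was also not called with the mean of its 2 probe sets. Of 12 measured lymphocyte markers none passed in limma's test and 1 had an unadjusted p under 0.05, CD247 at 0.53 (adjusted p = 0.0914), which passed when sow 7 or sow 12 was left out. Sow 7 had its highest non-pregnant and sow 12 its lowest pregnant value, so a larger difference is built into leaving either out. The part of all these markers in the calgranulin values was not tested.

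Of the conceptus markers, IFNG was high in pregnant sows 6 and 10. Of 11 measured trophoblast markers 0 rose and 1 fell, CYP19A3 by 0.33 (adjusted p = 0.0425), a call that ended without any 1 of sows 1, 2, 3, 4, 5, 6, 7, 9 and 10 (adjusted p up to 0.100). The mean of its 8 probe sets had a difference of the opposite sign, 0.0155. The interferon IFNG, which elongating pig conceptuses secrete, was 8.21 in pregnant sow 6 and 12.65 in pregnant sow 10, and 3.61 to 4.41 in the other 10 sows. The mean of the trophoblast list was 7.65 in sow 10, next highest in sow 6, and 5.27 to 5.70 in the other 10. IFNG is itself among the 11 genes of this mean, so the mean is not separate from the IFNG values. The place of sow 6 was not tested without IFNG. Sows 6 and 10 were the pregnant sows with high S100A9, 12.06 and 12.13, whose S100A8 was 5.28 and 5.17 and whose S100A12 was 4.65 and 4.87. In pregnant sows 2, 4 and 8, where S100A8 was 7.17 to 8.42, IFNG was 4.11 to 4.26. In pregnant sow 12 both were low, with S100A8 at 4.57 and IFNG at 4.00.

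**Figure D5:**
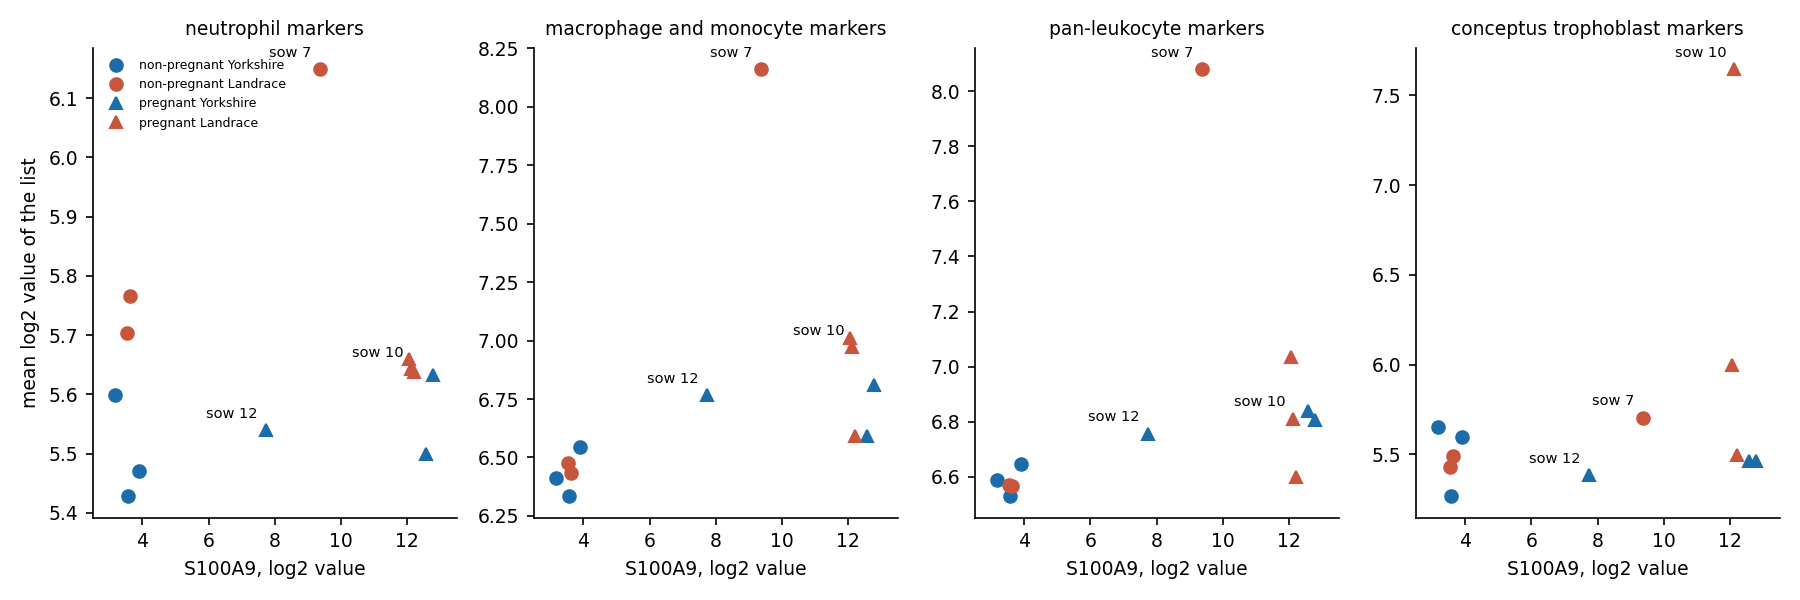
Mean log2 value of 4 marker lists (vertical axes, each with its own range that does not start at 0) against the S100A9 log2 value, 1 point per sow, with circles for non-pregnant, triangles for pregnant, blue for Yorkshire and red for Landrace sows. Non-pregnant sow 7 has the highest mean of the neutrophil, macrophage and pan-leukocyte lists, 6.15, 8.16 and 8.08, and pregnant sow 10 has the highest mean of the trophoblast list, 7.65.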

How the data were processed

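The deposited table held log2 expression values per probe set. The submitters' processing notes name RMA, affy and limma without versions. RMA makes array distributions alike, so a difference is measured against the rest of the array, and the number of arrays limits precision. Of 24123 probe sets, 124 controls were left out. Symbols came from the platform annotation (10069 probe sets with 1 symbol, 198 with several, 13732 with none); the probe set with the highest mean stood for a gene. The array's genome build is not given in the sources used here, and coordinates are left out.

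Tests used R 4.3.3 with limma 3.58.1 (linear fits with eBayes; two-sided; Benjamini-Hochberg over 23999 probe sets, threshold 0.05), with pregnancy and breed as additive terms and, for the interaction, a fit of 4 groups. The members, lists and tests were chosen with earlier results of these data known. Named were up to 4 called genes per list with the smallest p (or 2 where none was called), 22 measured genes of a set of 29, and the genes most like S100A9; genes named because a left-out sow changed their call, and IFNG, were chosen after their values were seen. Alternatives were cyclic loess, median centring, dropping dim probe sets, array weights, a trended robust prior, no breed term, the mean of a gene's probe sets and single sows left out; leaving out sows 7 and 12 together was added after seeing the data. The fit was tested on simulated data.

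Each sow is 1 replicate, and no 2 arrays held identical values. Replicate numbers were not shared between groups.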

Additional observations from a re-analysis of the deposited data

Results flagged for a closer look

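In groups of 6 sows, a sow whose gap to its nearest neighbour took up more of the group's range than Dixon's 95% critical value was marked. Of 138 groups tested, 30 had such a sow, and chance alone marks about 1 in 20. Non-pregnant sow 7 was the marked sow in 24 of the 30, and pregnant sow 12 in 1. The groups share sows, and some genes stand on more than 1 list, so the 30 are not independent.

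Among the calgranulins, S100A9 was marked high in non-pregnant sow 7 at 9.35 and low in pregnant sow 12 at 7.72, and S100A12 was marked high in sow 7 at 5.07. S100A8 was highest among non-pregnant sows in sow 7 at 6.03 and was not marked.

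Non-pregnant sow 7 was also marked for high values of S100A4 (7.97), CD14 (7.62), IL1B (9.74), NFKBIA (10.00), CXCL8 (8.64), the NADPH oxidase subunit CYBA (9.50), ALOX5AP (8.19), CD163 (11.1), PTPRC (6.54), ITGB2 (7.39), the leukocyte plastin LCP1 (8.49) and the T cell antigen CD2 (8.08), and for a low value of DEFB1 (8.25). The list means marked high in it were those of receptors and partners (7.58), cytokine and transcription inputs (7.73), neutrophil chemoattractants (7.03), epithelial defence (7.89), stressed squamous epithelium (7.07), NADPH oxidase and leukotriene enzymes (8.81), macrophage (8.16), pan-leukocyte (8.08) and lymphocyte markers (6.71).

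In pregnant sow 10, IL1B was high at 9.52, NFKBIA low at 7.86 and the mean of the trophoblast list high at 7.65. PTPRC was low in pregnant sow 8 at 4.91, and the mean of the epithelial defence list was low in pregnant sow 2 at 6.65.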

How the results depend on the processing

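The breed difference and interaction of each calgranulin missed the threshold under every alternative run; S100A12 had no value without dim probe sets. Without single sows the breed difference ran from -0.71 to 0.15 for S100A8 and from -0.52 to 0.10 for S100A12, and the S100A9 interaction from -2.50 to 1.07. Probe sets called higher with pregnancy numbered 514 to 1201 and lower 437 to 1425, for breed 820 to 1342 and for the interaction 0 to 18. Leaving out 1 sow gave 1 to 5 receptors higher, 0 to 1 cytokine inputs higher, 1 to 3 defence genes higher and 0 to 2 lower, 0 to 3 metal genes higher and 0 to 1 lower, 0 to 2 oxidase genes higher, 1 to 2 S100 genes lower, 0 to 1 neutrophil markers lower, 0 to 2 macrophage, 0 to 1 pan-leukocyte and 0 to 1 lymphocyte markers higher and 0 to 2 trophoblast markers lower. Array weights gave 1697 probe sets higher, 1943 lower and 2 interaction calls, with 3 receptors higher and 1 lower, 4 defence genes higher, 2 S100 genes lower, 1 metal gene lower, 1 neutrophil marker lower, 1 lymphocyte marker higher and 2 trophoblast markers lower. Without the breed term 579 were higher and 586 lower, with 1 defence gene higher and 0 lower and 1 metal gene higher. Without sows 7 and 12, chosen after seeing the data, 1492 were higher, 1721 lower, 800 called for breed and 29 for the interaction. That fit gave an S100A9 breed difference of -0.26, with 5 receptors, 2 cytokine inputs, 2 chemoattractants, 4 defence genes, 2 oxidase genes, 2 macrophage markers, 1 pan-leukocyte marker and 1 lymphocyte marker higher, and 2 S100 genes, 1 defence gene, 2 metal genes and 1 neutrophil marker lower. Over all genes the same fit called 7.54% higher and 11.6% lower. Cyclic loess and the trended robust prior each gave 1 defence gene lower and 0 trophoblast markers lower, and the prior 1 defence gene higher. Median centring gave 1 defence gene higher, 1 metal gene lower and 1 neutrophil marker lower. Without dim probe sets 2 receptors were higher, 1 metal gene lower and 2 trophoblast markers lower. With the mean of a gene's probe sets AMCF-II was at -0.0071 and CYP19A3 at 0.0155, both turned in sign, with 0 chemoattractants higher, 1 defence gene higher and 0 trophoblast markers lower. The r of S100A8 and S100A12 in non-pregnant sows was -0.48 without the 2 farthest sows. The causes of these changes were not tested. Endothelial markers called higher numbered 4 at the fewest, stromal markers 2, and epithelial markers 0 higher and 0 lower, when single sows were left out. No paired analysis was possible because the labels name no pairs and no replicate number is shared between groups. The numbers alternate, each odd-numbered non-pregnant sow having the breed of the next, pregnant sow; whether this order marks pairs was not tested.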

Other observations

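The listed genes DEFB1 and S100A1 placed non-pregnant sow 7 with the pregnant sows while leaving pregnant sow 12 with the non-pregnant ones. DEFB1 was 11.1 to 11.8 in 5 non-pregnant sows and 8.25 in sow 7, and 6.37 to 8.56 in 5 pregnant sows and 11.1 in sow 12. S100A1 was 11.08 to 11.48 in those 5 non-pregnant sows and 10.41 in sow 7, and 10.37 to 10.69 in those 5 pregnant sows and 11.17 in sow 12. EMB and IL1A did not follow this: EMB was 5.32 in sow 7 and IL1A 7.06, both within the range of the other non-pregnant sows. These genes were chosen after their values were seen.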
